A study of Mus musculus with 3 samples.

Results

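The cells described here are the primary progenitors of the newborn (P0) mouse retina, chosen as every cell that the deposited cell annotation calls a progenitor and does not call a neurogenic progenitor. They numbered 2797 of the 5706 cells of the P0 library, and of 14611 cells in the whole series. The P0 library pooled 5 samples, each called a retina here although the sources leave the number of retinas in a sample unstated: 1 *Sstr2*+/+ (wild type), 2 *Sstr2*+/- (heterozygous) and 2 *Sstr2*-/- (knockout). All were P0 pups of a C57BL/6 / CD1 background, from an allele made in C57BL/6NCrl and outbred to CD1, obtained by crossing heterozygous F1 mice, and none was treated. The deletion is carried in the germ line, so by the labels every cell type of the knockouts carried it and not the progenitors alone, and linked or unlinked segments of either parental background can also differ between pups. Lipid-anchored barcodes (MULTI-seq) marked each sample before pooling, and 10x 3′ libraries gave counts of unique molecular identifiers (UMIs), each UMI standing for 1 captured transcript.

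Primary progenitors are the dividing, undifferentiated cells of the retina. Notch signaling and the transcription factors it switches on keep them undifferentiated, cyclin D1 drives them through G1, and their nuclei move across the tissue as the cycle proceeds. Those that leave this state pass through a neurogenic stage and become neurons, and the last ones in the postnatal retina become Müller glia, with which they share many genes. *Sstr2* encodes a somatostatin receptor that couples to inhibitory G proteins.

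In the order wild type, heterozygous 1, heterozygous 2, knockout 1 and knockout 2, which is used for all values listed by retina, the progenitors numbered 603, 540, 613, 500 and 541 cells. They made up 50.0, 49.7, 48.9, 49.1 and 47.5% of the cells of their retina. Their summed UMIs were 5602400, 5806028, 5466559, 4567890 and 5219944, and the median cell held 8584, 10017, 8004, 8522.5 and 9010 UMIs. Depth was therefore similar across retinas, with heterozygous retina 1 the deepest per cell. Levels below are given as CPM, the count of a gene scaled to a fixed total of UMIs in the summed progenitors of a retina. Values compare a gene between retinas or cell types, since 3′ tags have no length correction and are not compared between genes. Of the progenitors, 5 (0.179%) carried a cell barcode that also occurs in the explant library and 3 (0.107%) one that occurs in the P14 library.

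Some retinas stood apart from the others in ways their genotype labels do not name. The X-linked RNA *Xist*, which is made in female cells, stood at 3.03, 1269, 1.83, 3.06 and 1275 CPM, and the Y-linked gene *Eif2s3y* at 50.9, 0.17, 58.7, 54.1 and 0.57 CPM. Heterozygous retina 1 and knockout retina 2 thus carried the female pattern and the other 3 the male one, so that wild type against knockout compared a male retina with 1 male and 1 female. A few cells of other kinds also lay among the progenitors. Cells with at least 3 of the 7 microglia genes numbered 4, of which 3 came from heterozygous retina 1 and 1 from knockout retina 2, and the summed microglia genes stood at 0.00, 105.9, 0.18, 0.00 and 14.2 CPM, led by *Tyrobp*. The summed astrocyte genes were 1.25, 4.48, 2.56, 2.41 and 51.9 CPM, led by *Gfap*, which stood at 37.7 CPM in knockout retina 2. The summed genes of the pigment epithelium and ciliary margin were 3.39, 34.1, 4.94, 3.28 and 4.79 CPM, led by *Dct* at 12.6 CPM in heterozygous retina 1. The endothelial genes summed to 191 CPM, led by *Kdr*, which retinal progenitors also express, and the red blood cell genes to 1.06 CPM. Their part in the results was not tested beyond leaving out whole retinas, and counts of called genes without these retinas are given beside the genotype results.

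The markers matched the label. *Ccnd1*, which encodes cyclin D1, stood at 3966, 3702, 3922, 3996 and 3840 CPM in the progenitors, with at least 1 UMI in 99.6% of the cells. Its mean of 3885 ± 118 CPM (SD, n = 5) was 3.65-fold the level in neurogenic progenitors, the next type in order at 1064 CPM. The retinas lay close together and no retina of another type reached them. *Hes1*, a repressor of neuronal genes that Notch activates, stood at 891, 778, 872, 727 and 764 CPM, a mean of 806 ± 71.5 CPM (SD, n = 5), 4.15-fold that of photoreceptors, the next type at 195 CPM. *Fgf15*, a growth factor of retinal progenitors, stood at 133, 103, 134, 111 and 133 CPM, a mean of 123 ± 14.8 CPM (SD, n = 5) against 30.7 CPM in photoreceptors. *Sfrp2*, which encodes a secreted modulator of Wnt signaling, stood at 59.8, 55.6, 61.1, 54.9 and 84.5 CPM, with knockout retina 2 above the other 4, and its mean was 4.26-fold that of neurogenic progenitors. *Sox2*, a transcription factor of neural stem cells, was the least selective of the markers, with 296, 301, 284, 308 and 255 CPM, 1.91-fold the 151 CPM of neurogenic progenitors. Each of the 5 markers was highest in the primary progenitors in 5 of 5 retinas. The annotation was made from clusters of these same cells, so these values describe the annotated cells and are no test.

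**Figure D1:**
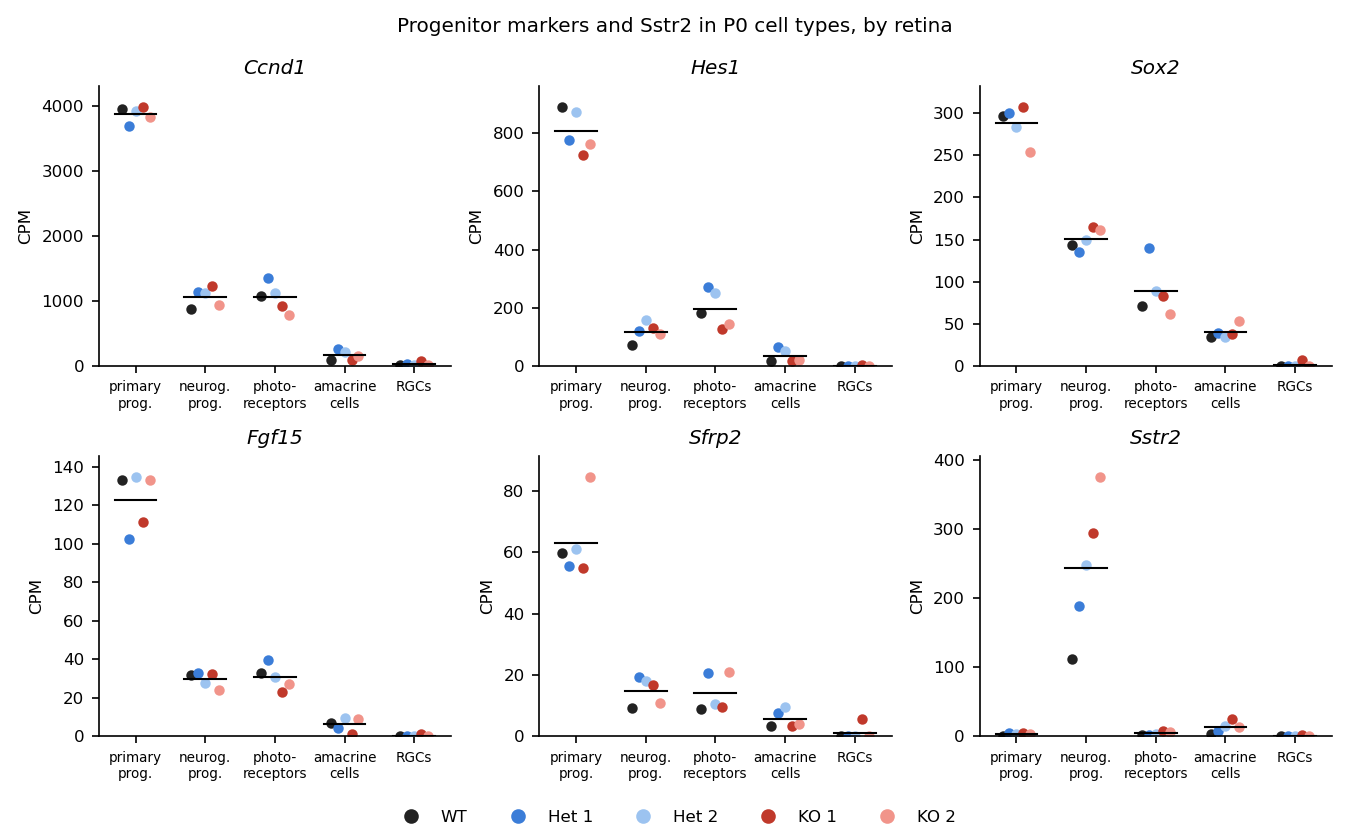
Level (CPM, vertical axis) of the 5 markers and of Sstr2 in each annotated P0 cell type (horizontal axis, prog. for progenitors), with 1 point for each of the 5 retinas, coloured by genotype, and a bar at their mean. All 5 markers are highest in primary progenitors, Ccnd1 at a mean of 3885 CPM, whereas Sstr2 is high in neurogenic progenitors alone, at 112 to 375 CPM.

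Most markers of the neurogenic and neuronal states were low in the same cells. The summed neurogenic genes stood at 1871 CPM, against 9016 CPM in neurogenic progenitors. *Atoh7*, needed for ganglion cells, averaged 3.77 CPM, *Neurog2*, a proneural factor, 11.5 CPM and *Penk*, a neuropeptide precursor, 3.27 CPM. The photoreceptor gene *Crx* averaged 3.23 CPM, *Rcvrn*, which encodes recoverin, 0.29 CPM from 8 UMIs in all, and *Pou4f2*, a ganglion cell factor, had 0 UMIs. Not all neurogenic genes were low. *Hes6*, which opposes Hes1, stood at 456 CPM with a UMI in 84.5% of the cells, and *Sox4*, a factor of young neurons, at a mean of 500.0 CPM. Cells with at least 3 photoreceptor marker genes numbered 107, or 20, 25, 27, 18 and 17 by retina, and those with at least 3 amacrine markers 43. Whether these are doublets, cells about to differentiate or free RNA was not tested.

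Genes of late competence, which mark progenitors of the perinatal retina, summed to 3395 CPM, against 1831 CPM in neurogenic progenitors, led by *Crym*, which encodes a thyroid hormone binding protein, at 576 ± 53.0 CPM (SD, n = 5). *Sox9*, a factor of late progenitors and glia, stood at 259.9 ± 31.6 CPM and *Nfib*, a factor that promotes late fates, at 255 ± 17.5 CPM (SD, n = 5). The summed genes of early competence stood at 285 CPM, against 222 CPM in neurogenic progenitors, and *Hmga2*, a chromatin protein of early progenitors, at 20.6 CPM. Müller glia genes were already present, with *Glul*, which encodes glutamine synthetase, at 236 ± 10.3 CPM, *Slc1a3*, a glutamate transporter, at 221 ± 13.6 CPM (SD, n = 5), and *Rlbp1*, a retinoid carrier, at 53.9 CPM. The water channel *Aqp4* of mature glia had 10 UMIs in all. The summed Müller glia genes were 3226 CPM in primary and 1306 CPM in neurogenic progenitors. Genes of the signals that progenitors receive lay the same way for the Hedgehog pathway, at 697 against 316 CPM, and for FGF signaling, at 817 against 348 CPM, whereas the Notch pathway summed to 2599 CPM in primary and 2732 CPM in neurogenic progenitors.

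*Sstr2* itself was scarcely detected in the primary progenitors. It stood at 0.71, 5.34, 3.84, 4.16 and 2.87 CPM, from 4, 31, 21, 19 and 15 UMIs, and 36 cells (1.29%) held a UMI of it. With each cell thinned to 4000 UMIs, 0.614% of the primary progenitors held one, against 34.4% of neurogenic progenitors. The share was 1.56% in photoreceptors and 3.39% in amacrine cells, and 0 of 85 RGCs held one. With all UMIs 1.18% of RGCs held one, so the 0 sets no limit on the share expressing *Sstr2*. The share in primary progenitors lay below those in photoreceptors and amacrine cells, and whether these types express *Sstr2* was not tested. The share is therefore read neither as expression nor as its absence, and the part of free RNA in it was not tested. Knockout and heterozygous retinas overlapped and the wild type was lowest, and knockout exceeded wild type by 2.23 on the log2 scale (SE 0.67, edgeR quasi-likelihood test, Benjamini-Hochberg adjusted p = 0.993). In neurogenic progenitors *Sstr2* stood at 112, 189, 248, 294 and 375 CPM, highest in the retinas labelled knockout. The extent of the deletion relative to the 3′ tags is not given in the sources used here, so the gene does not check the genotype labels, and a knockout is here a retina labelled as one. Of the other genes of the somatostatin list, *Cort* and *Sstr5* were in the table, and the whole list summed to 4.34 CPM in primary progenitors.

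Most of the progenitors were called outside G1. Each cell was scored with published lists of 43 S phase genes and 54 G2M genes and called by the higher score where that was above 0, and G1 otherwise. Of the 2797 cells, 14.9% were called G1, 43.2% S and 41.9% G2M, whereas the G1 share was 46.5% in neurogenic progenitors, 85.8% in photoreceptors, 97.7% in amacrine cells and 100% in RGCs. The calls come from scores without a gap between them, and 243 progenitors (8.69%) had a higher score within 0.05 of the G1 limit. Depth moved with the calls, since the median cell held 6290 UMIs in G1, 8422 in S and 11232 in G2M. The part of depth in the G1 calls was not tested beyond the values with thinned cells given below.

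Genes outside the score lists followed the calls. Among 8447 genes outside the lists with at least 200 UMIs, 492 were higher in S than in G1 and 55 lower. Between G2M and S, 248 were higher in G2M and 111 lower. Each of these had a mean ratio over the retinas of at least 2-fold and the same direction in all 5 retinas. The 2-fold limit was not applied to each retina. The retinas share the lists and the calls, so these counts describe the classes and are no test. *Mcm6*, a subunit of the replicative helicase and a member of the S list, stood at 150 ± 20.2 CPM in G1, 412 ± 12.1 in S and 110.4 ± 12.4 in G2M (SD, n = 5). Outside the lists, *Lig1*, the ligase that joins Okazaki fragments, stood at 53.7, 376 and 101 CPM in the 3 classes, and *Mcm3*, another helicase subunit, at 65.7, 208 and 49.6 CPM. *Ccne1*, cyclin E1, which starts S phase, stood at 1.02, 50.4 and 39.3 CPM. *E2f1*, a factor that drives S phase genes, stood at 175, 231 and 69.0 CPM. Cyclins of mitotic entry came later. *Ccnb1*, cyclin B1, stood at 1.95 CPM in G1, 10.2 in S and 264 ± 19.2 in G2M (SD, n = 5), 26.0-fold higher in G2M than in S, and *Plk1*, a mitotic kinase, at 0.70, 4.17 and 85.2 CPM. The histone gene *Hist1h1b* stood at 23.9 CPM in G1, 649 CPM in S and 2329 CPM in G2M, so its transcripts were highest in the cells called G2M and not in those called S. *Ccnd1* varied least of the cyclins named, at 2840 ± 306, 3930 ± 104 and 4061 ± 153 CPM (SD, n = 5).

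Some genes of the progenitor state and of neurogenesis, chosen after their values were seen, also differed between the called phases. *Hes5*, a Notch target, stood at 1849 ± 220 CPM in G1 and at 941 and 928 CPM in S and G2M, 1.97-fold higher in G1 than in S and higher in 5 of 5 retinas. *Hes1*, also a Notch target, went the other way, at 576, 643 and 989 ± 133 CPM, 1.54-fold higher in G2M than in S in 5 of 5 retinas (SD, n = 5). These related repressors were thus highest at opposite ends of the called cycle. *Dll1*, a Notch ligand of cells leaving the progenitor state, was 3.87-fold higher in G1 than in S, at 68.5, 17.7 and 23.7 CPM, and *Hes6* 2.31-fold higher, at 789, 341 and 480 CPM. *Sox4* stood at 955, 421 and 470 CPM. The cells called G1 therefore held more *Dll1*, *Hes6* and *Sox4* than those called S. *Foxn4*, a transcription factor of progenitors, did not share this order, at 4.23, 9.31 and 21.2 CPM, and *Sox2* was nearly level between G1 and S, at 250, 251 and 328 CPM.

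**Figure D2:**
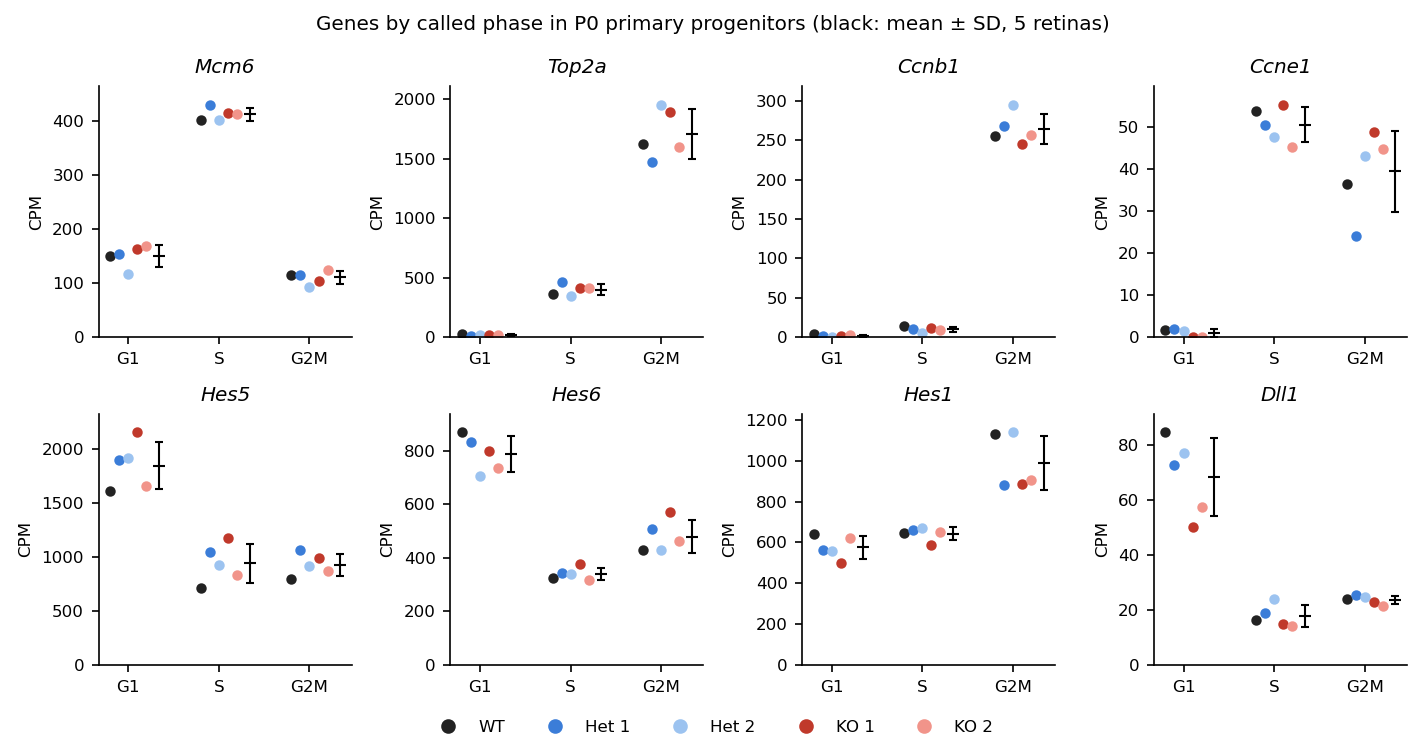
Level (CPM, vertical axis) of 8 genes in progenitors called G1, S or G2M (horizontal axis), 1 point for each retina, with the mean ± SD of the 5 retinas in black. Mcm6 is highest in S at 412 CPM, Top2a and Ccnb1 in G2M at 1710 and 264 CPM, Hes5, Hes6 and Dll1 in G1, and Hes1 in G2M.

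Promoters of the phase genes were searched for short motifs known from cell cycle promoters. Windows from 250 bases before to 50 after the start (RefSeq, GRCm38.p6) were searched on both strands for E2F words (TTTCCCGC, TTTGGCGC, TTTCGCGC or TTTGCCGC), for the CHR words TTTGAA or TTCGAA, known from genes of G2 and mitosis, and for the CCAAT box (CCAAT). Over all 27025 genes with a window, 2.60% held an E2F word, 21.7% a CHR word and 41.1% a CCAAT box. Among the 8836 genes with a window that were also tested in these progenitors, the shares were 5.13, 15.8 and 43.9%. Of the 54 G2M genes, 47 had a window, and 36 of these (76.6%) held a CHR word, 36 (76.6%) a CCAAT box and 3 (6.38%) an E2F word. Of the 43 S genes 31 (72.1%) had a window, too few for a check of the list, and of those 13 (41.9%) held an E2F word, 6 (19.4%) a CHR word and 21 (67.7%) a CCAAT box. A match is a description of the letters and not a site in use.

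The 150 bases before the start of 3 S phase genes and 3 G2M genes are shown. The genes were taken by mean CPM, from the most abundant members of each list that hold a word in these bases. All are written 5′ to 3′ along the gene's strand and end at the base before its start, and capitals mark E2F words in the first 3 and CHR words in the last 3. They lie at chr1:128359706-128359855 (Mcm6, minus strand), chr19:38930840-38930989 (Hells, plus), chr2:72476069-72476218 (Cdca7, plus), chr8:57511693-57511842 (Hmgb2, plus), chr11:99024190-99024339 (Top2a, minus) and chr2:164769779-164769928 (Ube2c, plus) of GRCm38.p6. In *Mcm6* 2 words overlap in 1 capital run.
Mcm6: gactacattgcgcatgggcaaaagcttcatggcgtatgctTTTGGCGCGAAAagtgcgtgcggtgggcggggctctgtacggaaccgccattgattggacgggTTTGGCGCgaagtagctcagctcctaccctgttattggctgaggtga
Hells: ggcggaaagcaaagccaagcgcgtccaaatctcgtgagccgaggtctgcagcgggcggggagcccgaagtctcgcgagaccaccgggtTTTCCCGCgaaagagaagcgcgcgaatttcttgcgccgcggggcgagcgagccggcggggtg
Cdca7: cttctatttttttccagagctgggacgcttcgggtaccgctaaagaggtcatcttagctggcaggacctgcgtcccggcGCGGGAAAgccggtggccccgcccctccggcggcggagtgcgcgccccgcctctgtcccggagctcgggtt
Hmgb2: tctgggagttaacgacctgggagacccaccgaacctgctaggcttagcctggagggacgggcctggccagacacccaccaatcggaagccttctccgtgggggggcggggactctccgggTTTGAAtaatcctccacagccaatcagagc
Top2a: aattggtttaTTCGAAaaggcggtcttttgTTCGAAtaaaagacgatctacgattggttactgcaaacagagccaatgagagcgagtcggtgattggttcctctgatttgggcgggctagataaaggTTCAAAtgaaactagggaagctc
Ube2c: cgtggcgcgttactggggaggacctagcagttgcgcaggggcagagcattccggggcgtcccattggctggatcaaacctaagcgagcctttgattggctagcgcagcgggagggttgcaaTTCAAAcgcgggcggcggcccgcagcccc

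The genes with these promoters were highest in the class of their list. *Hells*, a chromatin remodeller, stood at 37.6, 314 and 66.6 CPM in G1, S and G2M, and *Cdca7*, which recruits it, at 77.0, 179 and 47.9 CPM. *Hmgb2*, a chromatin protein, stood at 742, 1851 and 5598 CPM, and *Top2a*, the topoisomerase that untangles replicated chromosomes, at 18.2, 400.1 and 1710 CPM. *Ube2c*, which helps degrade mitotic cyclins, stood at 23.7, 13.5 and 1098 CPM. All of these are list members and had a part in the calls.

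The share of cells in each phase was compared between the 2 knockouts and the other 3 retinas. By retina 14.1, 14.1, 18.6, 14.6 and 12.8% of the progenitors were called G1, 42.5, 37.8, 44.0, 43.0 and 48.4% S, and 43.4, 48.1, 37.4, 42.4 and 38.8% G2M. Exact Clopper-Pearson 95% intervals, which cover counting error only, were taken for the single wild type. They were 11.4 to 17.1% for G1, 38.5 to 46.5% for S and 39.5 to 47.5% for G2M. The S share was 45.7 ± 3.84% (SD, n = 2) in the knockouts and 41.4 ± 3.26% (SD, n = 3) in the others, a difference of 4.29 percentage points (two-sided exact permutation p = 0.4, adjusted p = 0.7 over the 3 shares). G1 differed by -1.91 points (exact permutation p = 0.6) and G2M by -2.38 points (exact permutation p = 0.7), and both had an adjusted p of 0.7. The groups overlapped in all 3 shares, and the 10 splits of 5 retinas allow no p below 0.1. The spread within genotypes was as large as these differences, with 37.8 and 44.0% S in the 2 heterozygous retinas. The S difference was 1.57 points without knockout retina 2, 2.46 without heterozygous retina 1 and 7.003 without knockout retina 1. Without heterozygous retina 1, which had the lowest S share, the G2M difference became 0.205 points.

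With every cell thinned to 4000 UMIs, which left out 8, 6, 8, 1 and 7 shallower cells, the S shares were 37.6, 34.3, 39.8, 40.1 and 44.9%. Both knockouts then lay above the other 3 retinas, knockout 1 by a small margin, with a difference of 5.26 points (two-sided exact permutation p = 0.2). The G1 shares were 19.2, 16.9, 22.0, 17.8 and 15.9%, and the G2M shares 43.2, 48.9, 38.2, 42.1 and 39.1%. With a score limit of 0.1 in place of 0, the S shares were 36.5, 33.9, 35.7, 37.0 and 44.0%, a difference of 5.13 points at the smallest p that 10 splits allow (exact permutation p = 0.1, adjusted p = 0.3).

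**Figure D3:**
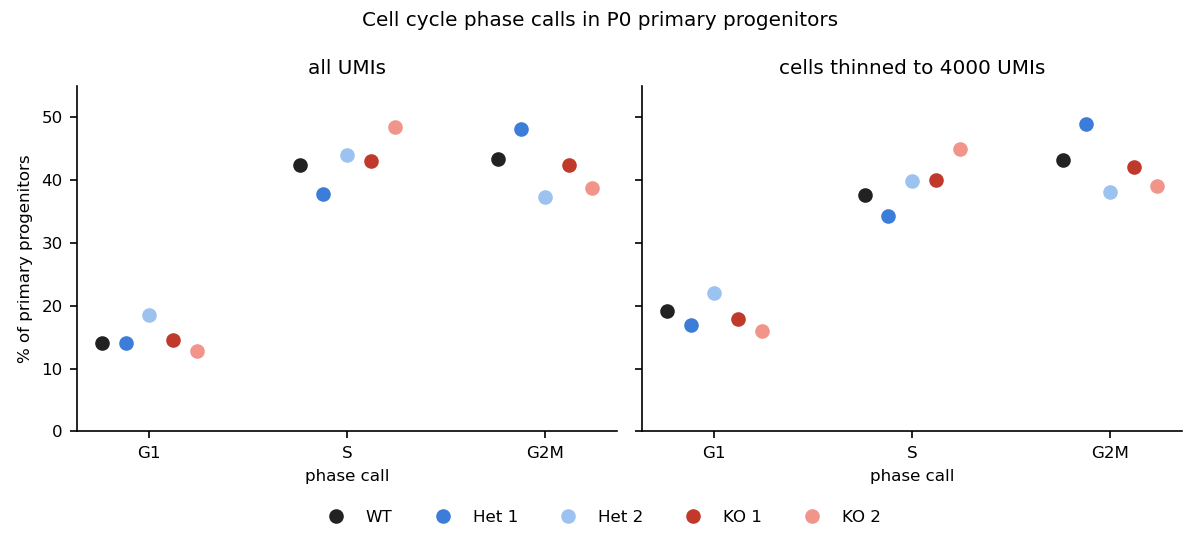
Share of primary progenitors (%, vertical axis) called G1, S or G2M (horizontal axis) in each of the 5 retinas, with all UMIs on the left and with cells thinned to 4000 UMIs on the right. The S share of the knockouts is 43.0 and 48.4% with all UMIs, overlapping the other retinas, and 40.1 and 44.9% after thinning, above them.

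The summed counts were tested gene by gene between genotypes, with the question which genes of the progenitors differ in a retina labelled as *Sstr2* knockout. The directions given rest on these labels, which the *Sstr2* tags do not check, being highest in the knockouts in neurogenic progenitors. By the quasi-likelihood test of edgeR, 3 of 11939 genes (0.0251%) passed an adjusted p of 0.05 between knockout and wild type. Those were *Gm8797*, which fell, and *Eif3j2* and *Mettl23*, which rose. Only *Gm8797* passed between knockout and heterozygous retinas, 1 of 11939 (0.00838%), and between the knockouts and the other 3 retinas together, 1 of 11456 (0.00873%). Unadjusted p-values under 0.05 numbered 462 (3.87%), 428 (3.58%) and 471 (4.11%) in these comparisons. The wild type is a single retina, so that in the first 2 comparisons the spread comes from the heterozygous and the knockout pair, whereas in the third the wild type is pooled with the heterozygous retinas and adds to the spread. The comparisons share the knockouts. Without heterozygous retina 1 the counts were 22, 8 and 3, and without knockout retina 2, the other retina with the female pattern, 4, 3 and 0.

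*Gm8797* is a gene of 1 exon and 490 bases at chr3:5750806-5751295 on the plus strand (GRCm38), annotated as coding for a protein. It stood at 221, 415, 219.9, 17.5 and 19.7 CPM, from 1239, 2410, 1202, 80 and 103 UMIs. Both knockouts lay far below the other 3 retinas, and heterozygous retina 1 far above the wild type and heterozygous retina 2. The log2 fold change was -3.59 against the wild type (SE 0.33, adjusted p = 0.0213 by edgeR after Benjamini-Hochberg adjustment). Against the heterozygous retinas it was -4.09 (SE 0.30, adjusted p = 0.00748 by edgeR), and against the other 3 together -3.94 (SE 0.30, adjusted p = 0.00123 by edgeR). Without knockout retina 2 the adjusted p of the last was 0.0555 from edgeR.

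The levels of *Gm8797* by retina were much the same in the other P0 types, at 249, 457, 223, 24.6 and 18.0 CPM in photoreceptors and 277, 458, 227, 14.2 and 23.1 CPM in amacrine cells. Heterozygous retina 1 was again the highest and the knockouts the lowest. In the Müller glia of the P14 retinas, which are other animals, it stood at 436, 209, 223, 35.6 and 28.4 CPM, and here the wild type was the highest. The difference was therefore not particular to progenitors, and levels near 220 and near 440 CPM both occurred among retinas labelled wild type or heterozygous. The gene lies on another chromosome than *Sstr2*, which is on chromosome 11.

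*Gm8797* shares 98.2% of 384 bases with *Ubb*, a polyubiquitin gene at chr11:62551171-62553213, with 6 mismatches and 1 gap, so that reads of the shared stretch could be counted at either gene and its level is uncertain. *Ubb*, chosen after its values were seen, stood at 2749, 2526, 2650, 2922 and 2877 CPM, with both knockouts above the other 3 retinas. A stretch of 120 bases of both coding sequences is shown to make the likeness visible, at chr3:5750934-5751053 and chr11:62552860-62552979 (GRCm38, plus strand), with capitals at the 5 bases that differ.
Gm8797: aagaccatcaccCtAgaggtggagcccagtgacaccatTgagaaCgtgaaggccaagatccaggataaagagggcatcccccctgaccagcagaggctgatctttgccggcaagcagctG
Ubb: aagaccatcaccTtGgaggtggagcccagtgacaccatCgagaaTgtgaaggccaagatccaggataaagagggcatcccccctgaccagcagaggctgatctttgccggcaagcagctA

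*Mettl23*, which encodes a methyltransferase, lies at chr11:116843278-116854263, 3.23 Mb from *Sstr2*. It stood at 44.3, 69.2, 68.1, 101 and 96.7 CPM, and the retinas fell into the order of the number of deleted alleles in their labels, with no overlap between genotypes. The log2 fold change was 1.13 against the wild type (SE 0.11, adjusted p = 0.0319 by edgeR after Benjamini-Hochberg adjustment), and against the heterozygous retinas 0.52 (adjusted p = 0.722 by edgeR). The same order was seen in 3 of the 4 other P0 types and not in RGCs, with *Mettl23* at 44.7, 79.3, 78.0, 98.7 and 99.2 CPM in neurogenic progenitors and 62.4, 99.4, 93.0, 142 and 138 CPM in photoreceptors, but 24.0, 37.8, 54.0, 32.4 and 46.9 CPM in the few RGCs, where heterozygous and knockout retinas overlapped. It was also seen in the P14 Müller glia of other animals, at 44.9, 56.0, 60.7, 68.7 and 76.8 CPM. Over all P14 cells, at 53.5, 67.2, 71.1, 60.4 and 80.4 CPM, the heterozygous and knockout retinas overlapped. The gene overlaps *Srsf2*, a splicing factor gene on the opposite strand, and the strand setting of the counting is not given in the sources used here. *Srsf2* stood at 434, 477, 467, 534 and 555 CPM, and *Mxra7*, a nearby gene, at 223, 282, 277, 347 and 302 CPM, both chosen after their values were seen, with the same order of genotypes. By the labels and the crossing scheme the deleted allele came with the chromosome 11 sequence of its own parental strain, so that a difference due to the deletion and one due to linked sequence cannot be told apart.

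*Eif3j2*, which encodes a form of a translation initiation factor subunit, stood at 9.64, 39.4, 44.5, 44.7 and 48.3 CPM. The wild type alone was low, and heterozygous and knockout retinas lay side by side, so the log2 fold change of 2.24 (SE 0.18, adjusted p = 0.0155 by edgeR after Benjamini-Hochberg adjustment) rests on 1 retina. It lies at chr18:43475418-43477796 and shares 99.4% of 2379 bases with *Eif3j1*, so the counts of either are uncertain. *Eif3j1*, chosen after its values were seen, stood at 163, 112, 118, 104 and 116 CPM, highest in the wild type. The wild type was also lowest in the other P0 types, with *Eif3j2* at 7.59, 43.5, 47.9, 31.6 and 44.6 CPM in neurogenic progenitors. In photoreceptors it stood at 4.80, 37.6, 35.1, 30.3 and 35.3 CPM, so the low wild type was not particular to progenitors. In the P14 retinas *Eif3j2* stood at 7.81, 8.81, 9.47, 12.2 and 6.62 CPM over all cells, with no low wild type.

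**Figure D4:**
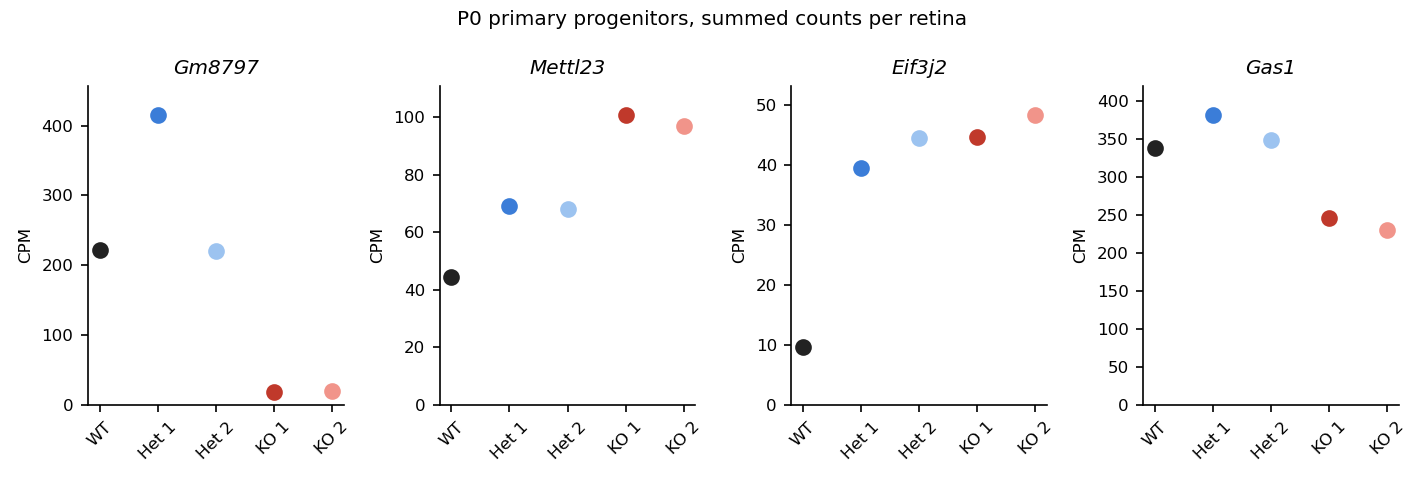
Level (CPM, vertical axis, from 0) of Gm8797, Mettl23, Eif3j2 and Gas1 in the summed primary progenitors of each of the 5 retinas (horizontal axis). Gm8797 is at 17.5 and 19.7 CPM in the knockouts and at 219.9 CPM or more elsewhere, Mettl23 is lowest in the wild type and highest in the knockouts, Eif3j2 is low in the wild type alone, and Gas1 is lower in both knockouts.

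Genes within 10 Mb of *Sstr2* were examined together. Of 187 tested, 1 passed the adjusted threshold between knockout and wild type (*Mettl23*) and 0 between knockout and heterozygous retinas, by edgeR, and DESeq2 and limma gave the same counts. An unadjusted p under 0.05 was seen for 9 (4.81%, against 3.87% of all genes) and 13 (6.95%, against 3.58%). Against the other 3 retinas together it was 14 of 179 (7.82%, against 4.11%). The median size of the log2 fold change was 0.16 near *Sstr2* and 0.15 over all genes between knockout and wild type.

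**Figure D5:**
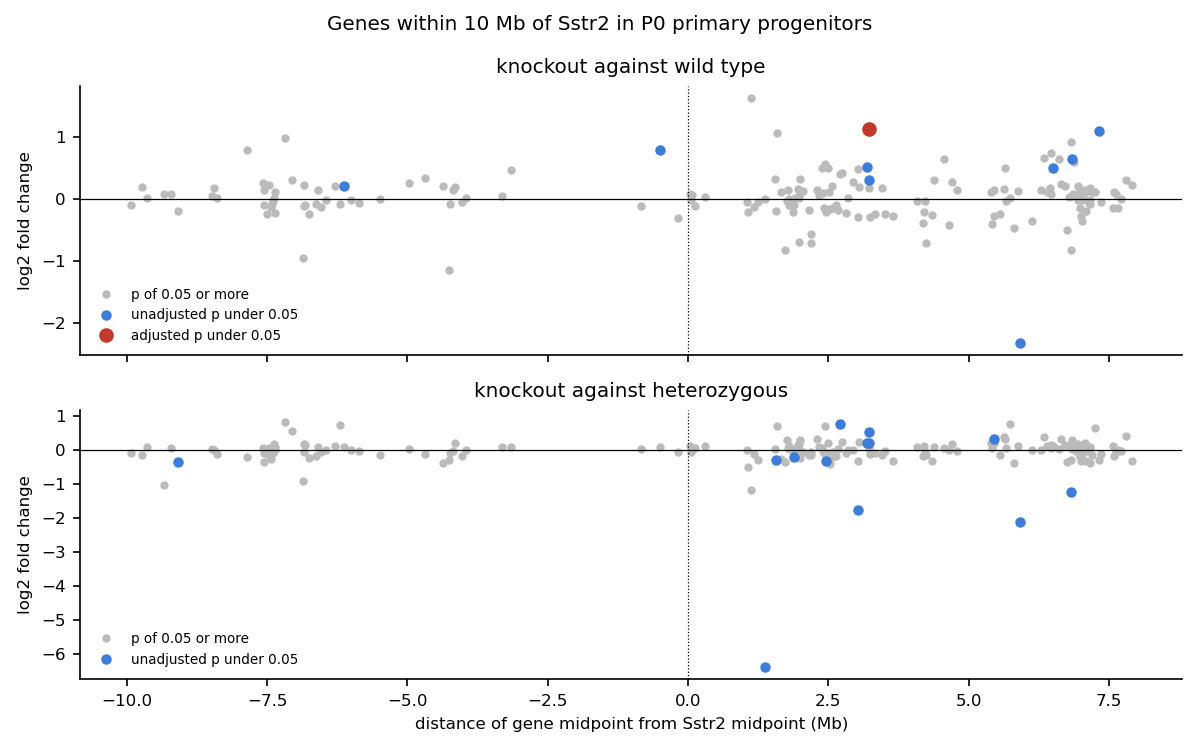
Log2 fold change (vertical axis) of genes tested within 10 Mb of Sstr2 against distance from it (Mb, horizontal axis), for knockout against wild type above and knockout against heterozygous below, coloured by edgeR's p. Mettl23, at 3.23 Mb, is the 1 gene past the adjusted threshold, and the lowest point of the lower panel is Cd300c2, whose 22 UMIs all came from heterozygous retina 1.

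Among the largest changes by the naming rule, several followed the retinas that stood apart and not the genotype. Between knockout and wild type, *Xist* and *Tsix* led the rises (log2 fold change 7.68 and 7.38, adjusted p = 0.993 for both by edgeR) on the level of knockout retina 2 alone. *Dct*, named among the falls against the wild type and against the heterozygous retinas, had 73 of its 77 UMIs in heterozygous retina 1, 2 in the wild type, 2 in heterozygous retina 2 and 0 in either knockout. Against the wild type its difference thus rests on 2 UMIs, and it reached the minimum of 50 UMIs through a retina outside that comparison. Between knockout and heterozygous retinas, *Ttr*, *Rgs10* and *C1ql3* fell in value on heterozygous retina 1, at 9.82, 7.92 and 5.86 CPM there and at most 2.01 CPM in any other, and *S100b*, an astrocyte gene, was highest in knockout retina 2 at 11.1 CPM. In other changes both knockouts lay to the same side of all other retinas, though the heterozygous retinas did not always share a level. *Unc13c*, a synaptic vesicle protein, stood at 21.1, 6.54, 10.4, 2.85 and 3.45 CPM (log2 fold change -2.75 against the wild type, adjusted p = 0.0715 by edgeR). *Slc15a2*, a peptide transporter, stood at 4.46, 0.86, 6.40, 11.8 and 10.5 CPM, with both knockouts highest (log2 fold change 1.51 against the other 3, adjusted p = 1.00 by edgeR). *Adcy2*, an adenylyl cyclase, stood at 5.71, 2.76, 3.48, 10.7 and 7.85 CPM (log2 fold change 1.20 against the other 3, adjusted p = 1.00 by edgeR). None of these passed the threshold, and *Unc13c*, *Slc15a2* and *Adcy2* are genes of few UMIs in progenitors. Against the wild type the rule also named *Tmsb15b1*, *Hist1h2bl* and *Gm13305* among the rises and *2510017J16Rik* and *Gm39459* among the falls. Among the rises against the heterozygous retinas it named *2410018L13Rik* and *H2-T23*. Against the other 3 together it named *Tubd1*, *A630089N07Rik*, *Gm21887* and *Gm10457*. All were short of the threshold. The minimum of 50 UMIs was counted over all retinas. *Gm13305*, with 37 of its 66 UMIs in heterozygous retina 2, reached it only through retinas outside its comparison. So did *Gm39459* against the wild type, and *H2-T23* and *C1ql3* against the heterozygous retinas.

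Gene lists were read against the background of the whole table. Of the 11456 genes tested between the knockouts and the other 3 retinas, 11.3% had both knockouts above all others and 8.11% both below, and the median log2 fold change was -0.00. Of the members of all lists, 0 passed the adjusted threshold in the main edgeR test in any of the 3 comparisons. An unadjusted p under 0.05 was seen for 24 of 303 members (7.92%, against 3.87% of all genes) in knockout against wild type, 36 of 303 (11.9%, against 3.58%) against the heterozygous retinas and 29 of 287 (10.1%, against 4.11%) against the other 3 together. The lists were chosen with earlier results known and their members are not independent, so these shares are a description. By DESeq2 0, 1 and 1 members passed, and by limma 0, 1 and 0, the member being *Gas1* each time. With heterozygous retina 2 left out *Csf1r*, *Cx3cr1*, *Dct*, *Ttr* and *Dbi* also passed by edgeR, with heterozygous retina 1 then alone in its group, and with knockout retina 1 left out *Gfap* and *S100b* did, with knockout retina 2 alone. Members other than *Gas1* are given by their values without a call.

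For S phase genes, 11 of 43 had both knockouts above the other retinas and 1 both below, 4 had an unadjusted p under 0.05 (4.11% of all genes did), all of them higher, and the median log2 fold change was 0.09. The list summed to 5148, 5034, 4894, 5219 and 5587 CPM, with both knockouts highest. Sums with both knockouts lowest were those of the Hedgehog list (737, 746, 747, 651 and 603 CPM), in which *Gas1* was the most abundant gene. The others were FGF signaling (842, 811, 834, 791 and 807 CPM) and late competence (3459, 3320, 3639, 3318 and 3240 CPM). For FGF signaling and late competence the gap was very small, 807 against 811 CPM and 3318 against 3320 CPM. The sums of the remaining lists overlapped. Of all genes tested, 11.3% had both knockouts above all others and 8.11% both below, so a sum lying apart is not read as a genotype effect. *Rrm2*, which makes deoxynucleotides, stood at 136, 112, 116, 151 and 157 CPM (log2 fold change 0.33, SE 0.09, adjusted p = 1.00 by edgeR), *Ung*, a uracil glycosylase, at 77.6, 71.5, 72.4, 88.2 and 95.2 CPM, and *E2f8*, a repressor of E2F targets, at 46.9, 42.0, 46.3, 54.3 and 60.3 CPM. The most abundant members differed less, with *Nasp*, a histone chaperone, at 419, 484, 414, 436 and 495 CPM and *Usp1*, a deubiquitinase, at 361, 338, 348, 381 and 366 CPM. For G2M genes, 14 of 54 had both knockouts below and 2 above, 9 had a lower and 1 a higher unadjusted p under 0.05, and the median was -0.08. The list summed to 15070, 15753, 15113, 15509 and 14053 CPM, and here the groups overlapped. *Cdc20*, which activates the anaphase complex, stood at 150.3, 169.7, 144, 136 and 125 CPM, and *Psrc1*, a spindle protein, at 26.2, 30.7, 29.4, 21.9 and 21.3 CPM, whereas *Top2a* stood at 970.3, 994, 1051, 1106 and 918 CPM. These lists are the ones behind the phase calls, so they and the shares are the same measurement seen from 2 sides.

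Of 19 progenitor transcription factors, 2 had both knockouts above and 2 both below, against 11.3 and 8.11% of all genes tested. An unadjusted p under 0.05 by edgeR was seen for 2 that were higher and 2 that were lower, and the median was 0.01. *Hes5* stood at 845, 1132, 1056, 1188 and 926 CPM, *Id3*, an inhibitor of proneural factors, at 629, 526, 603, 561 and 774 CPM, and *Six3*, an eye field factor, at 479, 507, 510.2, 534 and 499.6 CPM. *Hes1* was lower in both knockouts (log2 fold change -0.20, SE 0.07, adjusted p = 1.00 by edgeR), and *Meis1*, a homeobox factor, was higher, at 60.1, 64.8, 67.7, 73.1 and 83.0 CPM. *Ccnd1* and *Fgf15* had log2 fold changes of 0.01 and -0.03 against the other 3 retinas. The G1 cyclins, inhibitors and E2Fs had 6 of 25 above and 1 below, with a median of 0.02, the Wnt list 0 of 11 either way, with a median of -0.04 and *Ctnnb1*, its central transducer, at 211, 217, 214, 215 and 203 CPM, and the 14 late competence genes 0 above and 2 below, with a median of -0.11. The early competence list had 1 of 8 above and 1 below, with a median of 0.10, and the Müller glia list 1 of 11 above and 1 below, with a median of -0.11. In the latter *Dbi*, which binds acyl-CoA, stood at 1338, 1882, 1543, 1399.6 and 1286 CPM.

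In the Hedgehog list, *Gas1* had the lowest unadjusted p of all list members against the other 3 retinas and is described after its values were seen. It encodes a cell surface co-receptor that binds Sonic hedgehog. It stood at 338, 382, 349, 246 and 230.5 CPM, with both knockouts below all others (log2 fold change -0.59 against the other 3, SE 0.08, adjusted p = 0.0733 by edgeR). Against the wild type the log2 fold change was -0.53 (adjusted p = 0.491 by edgeR) and against the heterozygous retinas -0.62 (adjusted p = 0.336 by edgeR). DESeq2 gave an adjusted p of 2.93e-07 against the other 3 and of 0.000243 against the heterozygous retinas, the lowest over the alternatives, whose highest were 0.966 and 1.00 by edgeR. By edgeR *Gas1* passed without a filter on low counts (adjusted p = 0.0105 against the other 3 and 0.0384 against the heterozygous retinas), without heterozygous retina 2 against the heterozygous retinas (adjusted p = 0.0143) and without heterozygous retina 1 against the wild type (adjusted p = 0.0451), so the call depends on the setting. Over all alternatives the log2 fold change stayed between -0.65 and -0.53 against the other 3 retinas. It stayed between -0.69 and -0.56 against the heterozygous retinas, and between -0.59 and -0.43 against the wild type. With cells thinned to 4000 UMIs, 66.2, 67.8, 66.0, 57.3 and 49.3% held a *Gas1* UMI, so the gap was also seen at equal depth per cell. In neurogenic progenitors it stood at 104, 94.8, 143, 111 and 86.3 CPM and in P14 Müller glia at 569, 400.2, 614, 370.3 and 591 CPM, with the genotypes overlapping in both. In P0 photoreceptors it stood at 72.0, 158, 106, 66.4 and 50.5 CPM, with both knockouts again below all others. In amacrine cells it stood at 25.8, 49.0, 37.0, 28.4 and 28.8 CPM, where knockouts and others overlapped. Whether the fold change differs between these types was not tested. Of the 10 Hedgehog genes tested, 0 had both knockouts above the others and 3 both below, with a median of -0.00. Over all genes tested, 11.3% lay above and 8.11% below. *Gli3*, a repressor of the pathway, was among the Hedgehog genes below. *Ptch1*, the Hedgehog receptor and a target of the pathway, stood at 73.2, 67.3, 82.5, 84.3 and 77.0 CPM, *Gli1*, a target and transcription factor, at 38.5, 26.2, 39.7, 35.0 and 38.1 CPM, and *Smo*, the signal transducer, at 84.6, 81.1, 83.2, 83.4 and 83.0 CPM, so these overlapped between genotypes.

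Notch genes had 2 of 20 members with both knockouts above and 5 below, against 11.3 and 8.11% of all genes tested, with a median of -0.10. *Dll1* stood at 26.9, 27.4, 31.5, 22.5 and 21.5 CPM (log2 fold change -0.39, SE 0.12, adjusted p = 1.00 by edgeR). Of 17 neurogenic genes, 0 lay above and 2 below, with a median of -0.15. Those were *Sox4*, at 529, 518, 587, 485 and 382 CPM, and *Gadd45g*, a stress and neurogenesis gene, at 20.2, 21.01, 22.1, 15.3 and 11.9 CPM (log2 fold change -0.65, SE 0.15, adjusted p = 1.00 by edgeR). FGF genes had 1 of 14 above and 3 below, with a median of -0.08. *Fgf9*, a ligand, stood at 161, 168, 160, 178 and 141 CPM, and *Fgfr1*, an FGF receptor, stood at 20.7, 23.3, 24.0, 30.4 and 27.4 CPM.

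Somatostatin receptors lower cyclic AMP through inhibitory G proteins. The inhibitory G proteins and adenylyl cyclases had 3 of 12 members with both knockouts above and 0 below, with a median of 0.03. Of all genes tested, 11.3% had both knockouts above and 8.11% both below. *Gnai2*, an inhibitory G protein subunit, stood at 758, 859, 706, 834 and 741 CPM and *Gnai3*, another, at 107.5, 106.8, 112, 104 and 115 CPM, so knockouts and others overlapped. Immediate early genes, which answer to stimulation and to dissociation, had 1 of 18 above and 0 below, with a median of -0.11. Against the single wild type, 4 of the 18 had a lower and 0 a higher unadjusted p under 0.05 by edgeR. The median there was -0.23, and 3.87% of all genes had such a p in that comparison. Against the heterozygous retinas 0 of the 18 had such a p, with a median of -0.03. *Jund*, a transcription factor, stood at 848, 727, 848, 692 and 855 CPM. *Fos*, its partner, stood at 506, 466, 529, 339 and 546 CPM, the knockouts being the lowest and the highest retina, and *Egr1*, a further transcription factor, at 659, 792, 697, 718 and 805 CPM.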

How the data were processed

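Raw UMI counts per gene and cell, deposited by the authors without normalization, came from MULTI-seq 10x 3′ v3.0 libraries that, per the submitters' processing notes, were made with Cell Ranger 3.1.0, Seurat 3 and mm10. The authors also deposited SCT values, a natural log of depth-corrected counts plus 1, used in 1 alternative. Cell types and the retina of each cell came from the deposited annotation, which rests on cluster markers, and no cell was filtered further. Counts of primary progenitors were summed per retina and tested with the quasi-likelihood test of edgeR 4.0.16 under R 4.3.3, with TMM scaling, filterByExpr and Benjamini-Hochberg adjustment over all genes tested (threshold 0.05). The retinas came from littermates, and p-values measure the spread between these samples.

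Alternatives were DESeq2 1.42.0, its size factors in edgeR, no filter on low counts, limma 3.58.1 on log2(CPM + 1) of summed SCT counts (pseudocount 1), cells called G1 only, cells without the highest 5% of Scrublet scores, and leaving out each retina. Scrublet in scanpy 1.11.5 marked 503 P0 cells (8.82%), of which 116 were primary progenitors, and none was removed from the main sums. Phases were called with scanpy's gene scores on the lists of Seurat 5.3.0, and shares were compared by a two-sided exact permutation test over the 5 retinas. Python 3.11.15, numpy 2.4.6, scipy 1.17.1, pandas 2.3.3 and matplotlib 3.10.9 were used. Gene positions came from GENCODE M21 (GRCm38), in which 17602 of 17851 (98.6%) matched 1 gene, and transcripts were compared with blastn. Both count tests were first tested on simulated data with known changes, in which edgeR made more false calls than its threshold allows and more than DESeq2, so that its adjusted p-values may be too small.

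The genes named were the markers and *Sstr2*, the genes past the threshold, the 5 largest rises and 5 largest falls of each comparison among genes with at least 50 UMIs and both knockouts above or below all retinas compared, up to 6 of the members of highest mean CPM in each list and those past the threshold, and genes within 10 Mb of *Sstr2* past the threshold. Other list members named, those with a low unadjusted p among them, and the genes of the phase and promoter paragraphs were chosen after their values were seen. The cells, lists and rules were chosen with earlier results of these data known. Some list members are not reported here.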

Additional observations from a re-analysis of the deposited data

How the results depend on the processing

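The number of genes called between knockout and wild type, 3 in the main test, was 6 by DESeq2, 6 without a filter on low counts, 9 by limma and 1 in cells called G1 only, where 7081 genes could be tested. Between knockout and heterozygous retinas it was 2 by DESeq2, 2 without a filter and 2 by limma in place of 1, and against the other 3 retinas 2 by DESeq2 and 2 without a filter in place of 1. Leaving out 1 retina gave 4 to 26 genes against the wild type (26 without knockout 1, 22 without heterozygous 1 and 13 without heterozygous 2), 1 to 29 against the heterozygous retinas (29 without heterozygous 2, 15 without knockout 1, 8 without heterozygous 1 and 3 without knockout 2) and 0 to 9 against the other 3 (9 without knockout 1, 3 without heterozygous 1 and 0 without knockout 2). The cause of these changes was not tested, and an arm left with 1 retina is assumed to vary like the others. *Gm8797* passed in every alternative of the first 2 comparisons, with log2 fold changes of -3.79 to -3.52 and -4.48 to -3.56, and in all but the one without knockout 2 in the third (-4.21 to -3.57). *Eif3j2* and *Mettl23* passed in all but the one with cells called G1 only, where both had an adjusted p of 0.980 from edgeR. Their log2 fold changes against the wild type over all alternatives, this one included, were 2.10 to 2.29 and 1.07 to 1.17. Of 421 results on named genes, 400 kept their side of the threshold throughout. Most of these were short of the threshold in the main test, so the count says little about how stable the called genes are. Leaving out 1 retina moved the knockout difference in the phase shares to between -2.83 and -0.408 points for G1, 1.57 and 7.003 for S, and -5.19 and 0.205 for G2M, the last changing direction without heterozygous 1. No paired analysis was possible because the cell annotation gives each retina a barcode number of its own, and the numbers 1 and 2 used here for heterozygous and knockout retinas follow that order and pair nothing. Genes with few UMIs in the progenitors, *Sstr2* among them, could show only large differences at this depth.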
